A study of Mus musculus with 4 samples.

Results

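The 45 genes described here make up the core machinery of autophagy and of mitophagy, the autophagy of mitochondria. They are a list of named genes, set beside the other 21842 of the 21887 protein-coding genes in the mouse gene table used. The data were ATAC-seq, in which the Tn5 transposase cuts and tags open chromatin, from haematopoietic stem cells (HSCs) of C57BL/6 mice, wild type and male, at 8 weeks of age. Bone marrow came from pooled femora and tibiae, and the cells were gated as LSK (without lineage markers and with Sca-1 and Kit), CD34-negative, CD48-negative, Flt3-negative and Slam1-positive. They were then split by surface CD93, a transmembrane lectin-like receptor, into 2 libraries of CD93-positive and 2 libraries of CD93-negative HSCs. The title of the series gives the purpose as a comparison of these fractions. The libraries are numbered 1 and 2 in each group, after the replicate numbers of the sample titles. The labels do not tie them to separate mice, so p-values measure only the spread between these libraries, which may be technical.

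For each library the authors deposited a list of peak summits, the single bases of highest signal in a peak, each with a score. The score is taken as −log10 of a p or q value, set against the library's own background. A gene was counted as listed in a library when a summit lay within 1000 bp of either end of the gene, here called a gene-end summit. The lists held 21 and 711 summits in CD93-positive libraries 1 and 2, and 7989 and 2755 in CD93-negative libraries 1 and 2, and the number of reads behind them is unknown. A gene missing from a list is therefore not shown to be closed, and in such bulk libraries fewer cells with an open site and less signal per cell cannot be told apart. Of 16 HSC marker genes, Tal1 and Lyl1 were listed in CD93-negative library 1 (scores of 6.57 and 19.3) and none was listed in the other libraries. Procr, Slamf1, Hlf and Mecom were among those not listed. Of all protein-coding genes, 32.2% and 12.9% were listed in CD93-negative libraries 1 and 2. Of the genes of the sort, Cd93 was in no list, and Flt3, whose product the gate selects against, was in that of CD93-negative library 1 (10.8). Markers of other cells were as scarce: 0 of 6 granulocyte and monocyte genes, 0 of 6 erythroid and megakaryocyte genes and 0 of 4 endothelial genes were listed in any library, and 1 of 6 T and B cell genes, Cd3d, in CD93-negative library 1 alone (15.6). The titles were followed where the deposited summit names carry another replicate number, which is 2 and 3 for CD93-positive libraries 1 and 2, and 3 for CD93-negative library 2.

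Autophagy encloses cytoplasm in a double membrane that fuses with lysosomes. A kinase complex around ULK1 starts it, a lipid kinase complex around VPS34 and Beclin 1 makes the lipid PI3P, and PI3P-binding WIPI proteins bring in a conjugation machinery that attaches proteins of the ATG8 family (LC3 and GABARAP) to the growing membrane. Cargo receptors and mitochondrial receptors such as BNIP3L (also called NIX) tie their cargo to ATG8 proteins, and the transcription factors TFEB and TFE3 drive lysosomal and autophagy genes through E-box elements. In HSCs autophagy is known for keeping active mitochondria few and for the maintenance of the stem cell pool.

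More of the autophagy genes were listed in each CD93-negative library than in each CD93-positive one. The same held for all protein-coding genes, with 32.2% and 12.9% in CD93-negative libraries 1 and 2, and 0.0183% and 3.22% in CD93-positive libraries 1 and 2. Gene-end summits were found at 1 and 2 of the 45 genes in CD93-positive libraries 1 and 2, and at 37 and 18 in CD93-negative libraries 1 and 2. Bnip3l was the gene in the first of these lists, Bnip3l and Wipi1 were those in the second, and both were also listed in both CD93-negative libraries. These 2 genes are 4.44% of the members. Of all protein-coding genes, 3.23% were listed in a CD93-positive library and 2.78% in CD93-positive library 2 and both CD93-negative ones. Bnip3l was chosen as anchor of the member list for being in every list, so its presence in both CD93-positive lists was known beforehand. All 18 genes of CD93-negative library 2 were among the 37 of CD93-negative library 1. Nearly the same held for all protein-coding genes, where 2787 of the 2829 listed in CD93-negative library 2 were listed in both.

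In percent, 2.22% and 4.44% of the members were listed in CD93-positive libraries 1 and 2, with exact Clopper-Pearson 95% intervals of 0.0562 to 11.8 and 0.543 to 15.1. The shares were 82.2% (67.9 to 92.0) and 40.0% (25.7 to 55.7) in CD93-negative libraries 1 and 2. Such intervals cover counting error only and treat genes as independent. Of all protein-coding genes, 0.0183% and 3.22% were listed in CD93-positive libraries 1 and 2, and 32.2% and 12.9% in CD93-negative libraries 1 and 2. The members' share was 1.38 times that of the other genes in CD93-positive library 2, where it rests on 2 genes, Bnip3l and Wipi1. Its interval there includes the share of all genes. The members' share was 2.56 and 3.11 times that of the other genes in CD93-negative libraries 1 and 2. Bnip3l, chosen as anchor for being in every list, counts in the members' share of each library. The CD93-positive shares, the ratio of 1.38 and the CD93-positive mean below rest on it in whole or in part. They are no independent result. Over the groups, the share of members listed was 3.33% ± 1.57 in CD93-positive and 61.1% ± 29.9 in CD93-negative libraries (SD, n = 2 each). The groups did not overlap and their means differed by -57.8 percentage points, but an exact permutation test (two-sided) gave p = 0.333, the smallest that 2 libraries against 2 allow. Without CD93-negative library 1 the difference was -36.7 points, so that the longest list sets much of its size.

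**Figure D1:**
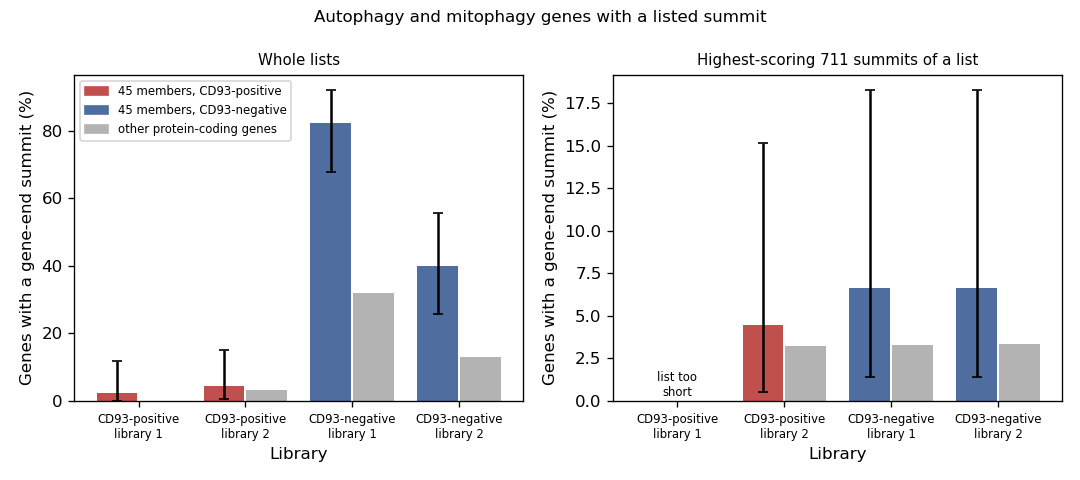
Share of the 45 autophagy and mitophagy genes (coloured bars) and of the other protein-coding genes (grey bars) with a gene-end summit in each library, in percent, with exact 95% intervals for the members. On the left, whole lists give 2.22% and 4.44% in CD93-positive libraries and 82.2% and 40.0% in CD93-negative ones, while on the right the highest-scoring 711 summits of each list that holds as many give 4.44%, 6.67% and 6.67%.

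When lists of equal length were compared, the libraries differed by 1 gene. With the 711 highest-scoring summits of each list, 2 members were listed in CD93-positive library 2, 3 in CD93-negative library 1 and 3 in CD93-negative library 2, beside 3.22%, 3.28% and 3.38% of all genes. The difference between the groups was then -2.22 points, with 1 CD93-positive library left. The genes were Bnip3l and Wipi1 in CD93-positive library 2, Uvrag, Atg3 and Wipi1 in CD93-negative library 1, and Bnip3l, Uvrag and Atg2a in CD93-negative library 2. Each gene at this length in the CD93-positive list was thus in one of the CD93-negative lists as well, and no member was in all 3. The overlap of all genes at this length was not counted, so this is not shown to be particular to the members. The CD93-positive list was used whole here, so the place of Bnip3l in it was known beforehand. With the 2755 highest-scoring summits, 17 members were listed in CD93-negative library 1 and 18 in CD93-negative library 2, beside 12.9% of all genes in each. With 21 summits from each list, the single member listed was Bnip3l in CD93-positive library 1, whose list was used whole. Bnip3l is the anchor of the member list for being in every whole list, so its presence there was known beforehand. Of all genes, 0.0183% were listed in CD93-positive library 1, none in CD93-positive library 2, and 0.0411% and 0.0228% in CD93-negative libraries 1 and 2.

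Members were also counted as a share of the genes each library listed. They were 1 of 4 genes in CD93-positive library 1, or 25.0%, and 0.284% in CD93-positive library 2. The shares were 0.525% and 0.636% in CD93-negative libraries 1 and 2. These gave means of 12.6% ± 17.5 in CD93-positive and 0.581% ± 0.0784 in CD93-negative libraries (SD, n = 2 each; exact permutation p = 1, two-sided). Without CD93-positive library 1, where 1 gene makes the whole value, the difference of 12.1 points became -0.297 points. That gene is Bnip3l, chosen as anchor for being in every list, so the 25.0% and the group mean resting on it are no independent result.

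Bnip3l encodes a receptor of the outer mitochondrial membrane that binds ATG8 proteins and is known for clearing mitochondria from maturing red cells. It lies on chromosome 14 from 66985238 to 67008877 (gene ID 12177). It was the only protein-coding gene listed in all 4 libraries (1 of 21887, 0.00457%), where only the 4 genes of CD93-positive library 1 could qualify. Bnip3l was made the anchor of the member list for being in all 4 libraries, so this trait is how it was chosen and not a result. Its summits were at 67008927 and 67008838 in CD93-positive libraries 1 and 2, and at 67008919 and 67008827 in CD93-negative libraries 1 and 2. All 4 lay within 50 bp of the higher-coordinate end of the gene and within 100 bp of one another, which is one site. The scores were 4.71 and 6.94 in CD93-positive libraries 1 and 2, and 37.2 and 22.0 in CD93-negative libraries 1 and 2. Within the lists, the site ranked 9 of 21, 461 of 711, 1832 of 7989 and 109 of 2755 in the same order. Lists of such unequal length do not allow these ranks to be compared between libraries. No end of another protein-coding gene lay within 1000 bp of these summits.

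Wipi1, a PI3P-binding protein of the forming autophagosome, was the other member listed in a CD93-positive library. Its summits lay upstream of its start site on chromosome 11, on the minus strand. They were 297 bp upstream in CD93-positive library 2, at 109611686, and 218 and 197 bp upstream in CD93-negative libraries 1 and 2, at 109611607 and 109611586. The scores were 8.11 in CD93-positive library 2, and 73.3 and 12.9 in CD93-negative libraries 1 and 2. The site ranked 364 of 711 in CD93-positive library 2, 271 of 7989 in CD93-negative library 1 and 782 of 2755 in CD93-negative library 2, again without a comparison between lists. The CD93-positive summit was 79 and 100 bp from those of CD93-negative libraries 1 and 2. The RefSeq promoter of the gene (GRCm38.p6, the assembly of mm10, chr11:109611340-109611639, minus strand, 5′ to 3′) is shown because it holds the sites of both CD93-negative summits, and the capitals mark the 22 bases from one to the other. The CD93-positive summit lies beyond its 5′ end.
Wipi1: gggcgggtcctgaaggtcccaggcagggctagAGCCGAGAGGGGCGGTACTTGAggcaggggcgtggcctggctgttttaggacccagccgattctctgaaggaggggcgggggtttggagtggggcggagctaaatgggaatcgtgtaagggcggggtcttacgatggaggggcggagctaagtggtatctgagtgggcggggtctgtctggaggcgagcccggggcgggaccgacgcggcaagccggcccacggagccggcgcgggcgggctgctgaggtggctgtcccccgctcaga
It is rich in G and C (69.0%) and held none of the motifs searched below. Both genes were listed near the same place in the CD93-positive and CD93-negative libraries, and in CD93-positive library 2 fewer summits scored lower than Bnip3l (34.2%) and Wipi1 (48.8%) than scored higher.

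**Figure D2:**
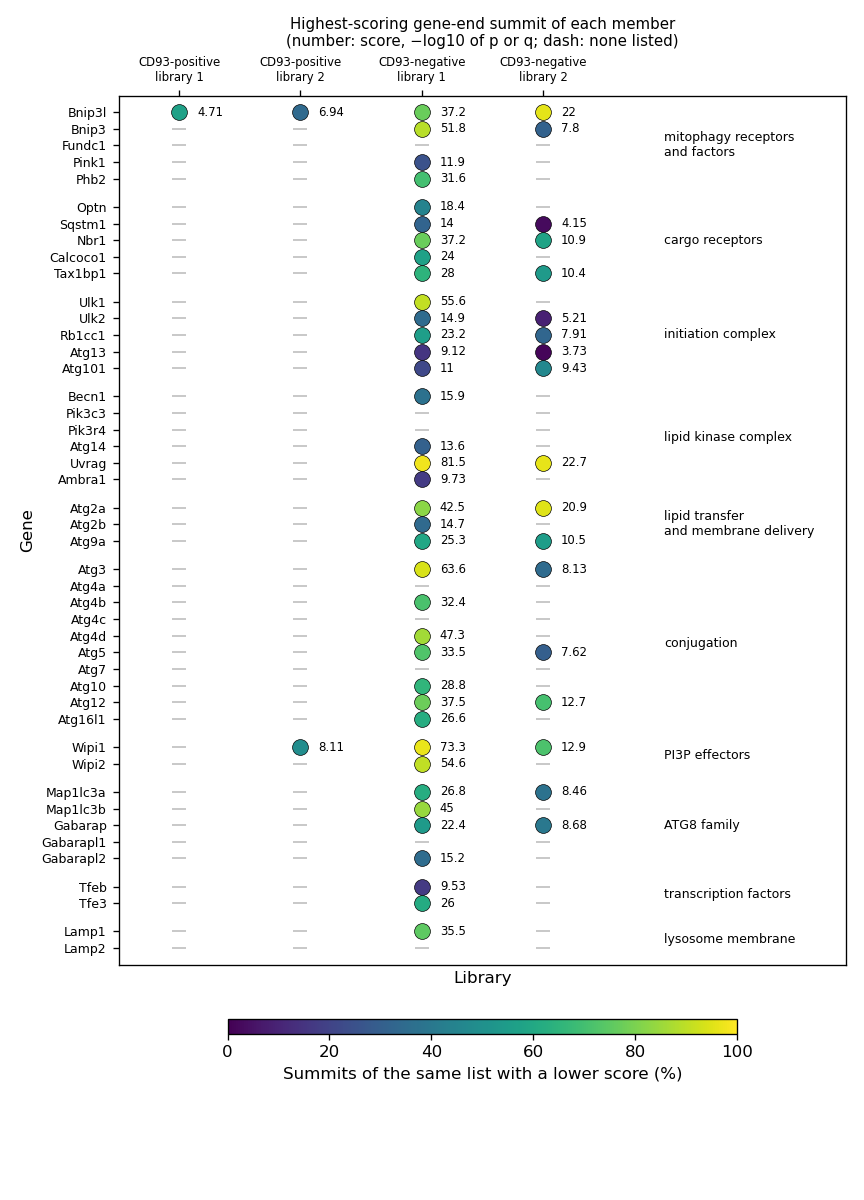
Highest-scoring gene-end summit of each of the 45 members (rows, by role) in each library (columns), with its score and, by colour, the percentage of summits in the same list that score lower. Dashes mark members with none: Bnip3l has a point in all 4 columns, Wipi1 in 3, and every other point is in a CD93-negative column.

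Among the other mitophagy factors, Bnip3, the hypoxia-induced relative of Bnip3l, scored 51.8 and 7.80 in CD93-negative libraries 1 and 2. It was a strong site in the first of these lists, where 89.1% of summits scored lower, and a weak one in the second, where 31.2% did. Phb2, an inner-membrane prohibitin, and Pink1, the kinase that marks damaged mitochondria, were listed in CD93-negative library 1 alone. Fundc1, an outer-membrane receptor encoded on the X chromosome, was not listed in any library. All 5 cargo receptors were listed in CD93-negative library 1 and 3 of them in CD93-negative library 2. Such counts by role stand beside 32.2% and 12.9% of all genes in these libraries, rest on 10 members at most and were not tested. Nbr1 scored 37.2 and 10.9 there. Tax1bp1 scored 28.0 and 10.4. Sqstm1, which encodes p62, scored 14.0 and 4.15, near the bottom of the second list. Its summits in the 2 libraries were 393 bp apart, the largest distance among the 18 members listed in both.

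Of the initiation complex, 5 of 5 members were listed in CD93-negative library 1 (32.2% of all genes) and 4 of 5 in library 2 (12.9% of all genes). The member missing from library 2 was Ulk1, the kinase that starts autophagy, although its score in library 1 was 55.6, the highest of the complex. Its paralogue Ulk2 scored 14.9 and 5.21 in CD93-negative libraries 1 and 2, and Rb1cc1, the scaffold also called FIP200, scored 23.2 and 7.91. Atg101 scored 11.0 and 9.43. Atg13 was the lowest-scoring member in both lists (9.12 and 3.73), and its summit in CD93-negative library 1 lay nearer to the end of Harbi1 (16 bp) than to its own (239 bp).

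The lipid kinase complex had 4 of 6 members in CD93-negative library 1 and 1 in CD93-negative library 2. That gene was Uvrag, which encodes a Beclin 1 partner, and it had the highest member score in both libraries (81.5 and 22.7). In these lists 97.8% and 96.3% of the summits scored lower than the Uvrag site, and the 2 summits were 3 bp apart, at 99141267 and 99141270 on chromosome 7, 123 and 126 bp upstream of the start. Becn1, Atg14 and Ambra1 were listed in CD93-negative library 1 alone, and the kinase gene Pik3c3 and its regulatory subunit Pik3r4 in no library. The Uvrag promoter (GRCm38.p6, chr7:99141095-99141394, minus strand) is shown as that of the strongest member site. Capitals mark 3 copies of CCAAT, the NF-Y motif, and 1 match of ACGTG, the core of the HIF motif, read on the other strand.
Uvrag: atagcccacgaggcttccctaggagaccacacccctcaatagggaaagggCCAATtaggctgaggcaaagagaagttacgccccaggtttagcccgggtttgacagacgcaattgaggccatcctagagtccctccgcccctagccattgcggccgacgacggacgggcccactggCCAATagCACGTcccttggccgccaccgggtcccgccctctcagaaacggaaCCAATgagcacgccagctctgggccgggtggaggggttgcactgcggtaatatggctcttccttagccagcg
The summits lie between the first and the middle copy of CCAAT.

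Of the genes for lipid transfer and membrane delivery, Atg2a, a lipid transfer protein, scored 42.5 and 20.9 in CD93-negative libraries 1 and 2, and Atg9a, a lipid scramblase, 25.3 and 10.5. Atg2b was listed in CD93-negative library 1 alone. In the conjugation machinery, 7 of 10 members were listed in CD93-negative library 1 and 3 of 10 in library 2. Atg3, the E2-like enzyme that transfers ATG8 proteins to lipid, scored 63.6 and 8.13. Atg5 scored 33.5 and 7.62, and its partner Atg12, a ubiquitin-like protein, 37.5 and 12.7. Atg4d, an ATG8 protease, scored 47.3 in CD93-negative library 1 and was not listed in library 2. Atg7, the E1-like enzyme at the head of the pathway, and the proteases Atg4a and Atg4c were not listed in any library.

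Wipi2 scored 54.6 in CD93-negative library 1 and, unlike its relative Wipi1, was not listed in library 2. Of the ATG8 family, Map1lc3b, the gene of the common autophagosome marker LC3B, scored 45.0 in CD93-negative library 1 alone, while Map1lc3a scored 26.8 and 8.46 in CD93-negative libraries 1 and 2. Gabarap scored 22.4 and 8.68, but both summits lay beyond the 3′ end of the gene and nearer to the end of Phf23 (151 and 167 bp) than to that of Gabarap (666 and 650 bp). At its own start Gabarap had a summit of 7.42 in CD93-negative library 1 only. Gabarapl2 was listed in CD93-negative library 1 alone and Gabarapl1 in no library. The transcription factor genes Tfeb and Tfe3 were both listed in CD93-negative library 1 alone, as was Lamp1, a lysosomal membrane protein (35.5), while its X-linked relative Lamp2 was not listed.

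Across the whole list, 16 members were listed in both CD93-negative libraries and in no CD93-positive one (35.6%, against 9.95% of all genes). A further 19 were listed in CD93-negative library 1 alone (42.2%, against 19.0% of all genes) and none in CD93-negative library 2 alone (0.192% of all genes). The 19 were the 5 of highest score, Ulk1, Wipi2, Atg4d, Map1lc3b and Lamp1, and 14 others with scores of 9.53 to 32.4 and a median of 17.1, from Atg4b, Phb2 and Atg10 down to Ambra1 and Tfeb. The remaining 8 were listed in no library (17.8%, against 67.6% of all genes).

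Strong and weak member sites of CD93-negative library 1 alike were both found in and missing from CD93-negative library 2. Of the 37 members, 23 scored at or above 23.9, the median of all genes listed there, and 12 of these were listed in library 2 (52.2%, 95% interval 30.6 to 73.2), against 59.8% of all genes in that range. Below the median, 6 of 14 members were listed in library 2 (42.9%, 17.7 to 71.1), against 19.4% of all genes. Both intervals are wide, and the lower range holds few members. Of the 1266 genes that scored as high as Map1lc3b or higher in CD93-negative library 1, 79.9% were listed in library 2, while of the 8 members among them 4 were, namely Uvrag, Wipi1, Atg3 and Bnip3. The other 4 were Ulk1, Wipi2, Atg4d and Map1lc3b. That cut was set at a member missing from library 2, and the contrast depends on the cut. From the score of Lamp1 upward, 8 of 13 members were listed in library 2, against 71.7% of 2057 genes. From that of Atg101 upward, 17 of 34 members were, against 45.4% of 5932 genes. All 18 members in both lists scored higher in CD93-negative library 1. The median score of all listed genes was also higher there (23.9, against 10.1 in library 2), and scores are not scaled between libraries. The order of the 18 members' scores was partly kept (Spearman's rho 0.61 over 18 genes of the same 2 libraries, a description). Among the 37 members, 5.41% (0.661 to 18.2) were also listed in CD93-positive library 2. This stands against 9.95% of the 7042 genes listed in CD93-negative library 1, a share that the interval includes. The members were Wipi1 and Bnip3l, which was chosen for being in every list, so the 5.41% is no independent result.

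**Figure D3:**
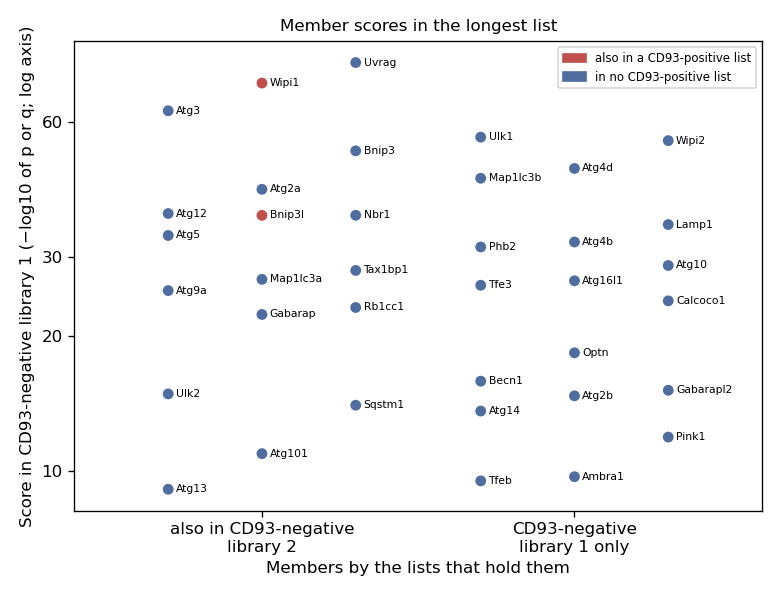
Score of each of the 37 members in CD93-negative library 1 (vertical log axis, −log10 of p or q), split into the 18 also listed in CD93-negative library 2 and the 19 that were not; horizontal offsets within a group only separate the names. The scores run from 9.12 to 81.5 on the left and from 9.53 to 55.6 on the right, with medians of 30.8 and 26.0. The groups overlap up to 55.6, and Uvrag, Wipi1 and Atg3 on the left lie above every member on the right. The red points are Bnip3l and Wipi1.

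Member sites lay at gene starts and were placed alike in both CD93-negative libraries. Of the 18 members listed in both, 17 had their strongest summits within 250 bp of each other, with a median distance of 18 bp and a range of 2 to 393 bp. This distance was not measured for other genes, so it is not shown to be particular to the members. RefSeq promoters, which give the start site and strand, were at hand for 38 members. In CD93-negative library 1, 30 of 31 such members had the summit within 1000 bp of a start (96.8%, against 93.9% for all genes), the exception being Gabarap. The median distance was 65 bp from the start, against 76 bp for all genes, and 22 of the 31 summits lay upstream (71.0%, against 67.0% for all genes). In CD93-negative library 2 the median was 117 bp for 14 members and 121 bp for all genes. The farthest from a start in library 1, apart from Gabarap, was Pink1, 624 bp downstream. In this respect the members had values near those of all listed genes.

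**Figure D4:**
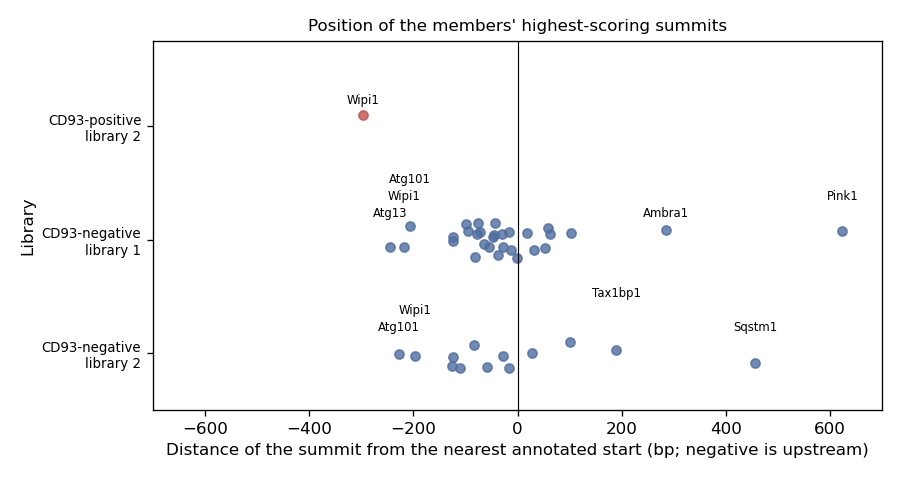
Distance of each member's highest-scoring summit from the nearest annotated start, in bp along the gene, for members with a RefSeq start within 1000 bp; vertical offsets only separate points. Most points lie within 100 bp of the start in CD93-negative library 1, Wipi1 lies 297 bp upstream in CD93-positive library 2, and the outlying points are named.

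Several member sites are shared with a neighbouring gene. In CD93-negative library 1, 9 of 37 member summits lay within 1000 bp of the end of another protein-coding gene as well, and in library 2, 6 of 18 did. The share over all listed genes was not counted, so these counts are not shown to be particular to the members. The pairs included Phb2 with Emg1, Atg9a with Ankzf1, Atg3 with Slc35a5, Atg4b with Thap4, Atg2b with Gskip and Atg12 with Ap3s1, where the other end was 37 to 119 bp away in CD93-negative library 1. Such a summit cannot be given to one gene of the pair. In CD93-negative library 2 the Atg3 summit was nearer to Slc35a5 (32 bp) than to Atg3 (124 bp). When a summit counted only for the gene with the nearest end, 36 and 16 members remained in CD93-negative libraries 1 and 2, beside 27.4% and 10.4% of all genes. CD93-positive libraries 1 and 2 kept 1 and 2 members, beside 0.0137% and 2.69% of all genes. Bnip3l, Wipi1, Uvrag and Ulk1 had no such neighbour.

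The 8 members listed nowhere were Fundc1, Pik3c3, Pik3r4, Atg4a, Atg4c, Atg7, Gabarapl1 and Lamp2. None of them was near a summit: the closest in any library, that to Atg7, was 33413 bp from an end of the gene, and a window over the whole gene body with 1000 bp on either side added no member in any library. Of the 8, 3 are on the X chromosome, which male cells carry once, and of the 4 X-linked members only Tfe3 was listed, in CD93-negative library 1 (26.0). Among all genes, 15.9% of 966 X-linked and 33.3% of 20665 autosomal genes were listed in that library, and 87.8% of the 41 autosomal members were. Fewer copies of the X chromosome and a lower accessibility cannot be told apart here. Where the promoter was at hand, the unlisted members had a median G+C content of 50.0% and a median of 11 CpG dinucleotides in 300 bases, against 61.8% and 23 for members listed in both CD93-negative libraries. The same contrast was seen over all genes, with 52.7% and 7 for unlisted genes and 63.0% and 24 for those in both.

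The E-box CACGTG, the core of the element that TFEB and TFE3 bind, was searched in the promoters of 250 bases before to 50 after each start, on both strands. It was in 6 of 45 promoters of 38 members (13.3%), against 7.84% of 21263 promoters of all protein-coding genes, 11.9% in genes listed in a CD93-positive library, 10.5% in genes listed in both CD93-negative libraries only and 6.13% in unlisted genes. The windows that hold it are shown with 20 bases on either side and the E-boxes in capitals (GRCm38.p6, gene strand, 5′ to 3′), because they are the members in which the element of the family's own transcription factors can be set beside the summits.
Lamp1, chr8:13159080-13159171, plus strand: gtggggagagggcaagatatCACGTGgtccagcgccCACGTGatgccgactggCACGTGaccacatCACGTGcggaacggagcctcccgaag
Atg3, chr16:45158715-45158783, plus strand: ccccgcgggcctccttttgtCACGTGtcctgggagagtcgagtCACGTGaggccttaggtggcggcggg
Bnip3, chr7:138909589-138909634, minus strand: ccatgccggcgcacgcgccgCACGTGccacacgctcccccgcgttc
Atg5, chr10:44268305-44268350, plus strand: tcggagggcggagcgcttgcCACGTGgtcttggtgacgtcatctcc
Atg14, chr14:47568410-47568455, minus strand: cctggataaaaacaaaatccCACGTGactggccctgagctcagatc
Atg7, chr6:114670944-114670989, plus strand: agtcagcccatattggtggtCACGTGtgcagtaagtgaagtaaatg
Lamp1 held 4 copies within the 61 bases before its start, and 5 of all 21263 promoters held as many (0.0235%). Its summit in CD93-negative library 1, at 13159180, was 19 bp downstream of the start and 29 to 75 bp from the copies. Atg3 held 2, and 0.748% of all promoters held 2 or more. Its summits were 29 and 30 bp from the nearest copy in CD93-negative libraries 1 and 2.

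The other single copies varied in whether a summit was near. Bnip3 had summits 16 and 2 bp from its E-box in CD93-negative libraries 1 and 2, and Atg5 had them 41 and 37 bp from its own. In Atg14 the E-box spans the start, and the summit of CD93-negative library 1 was 47 bp away. Atg7 carried an E-box but had no summit near it in any library, so the letters were present with and without a listed site. A match is a string of letters and says nothing of binding.

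The other motifs were described in the same way. ACGTG, which lies inside CACGTG and so counts those promoters again, was in 40.0% of member promoters and 20.9% of all promoters, and in 27.2% of promoters of all genes listed in both CD93-negative libraries only. CCAAT was in 28.9% of member and 38.2% of all promoters, and CCGGAAGT, an ETS motif, in 6.67% and 5.15%. TCACGTGA was in 2.22% and 1.23%, and GTCACGTG, which overlaps CACGTG like the last, in 8.89% and 2.84%. Among the 45 member promoters these shares are 3 promoters for CCGGAAGT, 1 for TCACGTGA and 4 for GTCACGTG, too few to compare with all promoters. The NRF1 string GCGCATGCG and the forkhead string GTAAACA were in no member promoter, against 2.35% and 3.01% of all promoters.

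Other genes of the pathway, from a list that holds no member, showed the same order of libraries. That order is also the order of list length and of the share of all genes listed. Of 54 such genes for ER-phagy, mitophagy, autophagosome maturation and lysosomes, 52 matched the gene table. None was listed in CD93-positive library 1 and 1 in CD93-positive library 2 (1.92%), beside 0.0183% and 3.22% of all genes. That gene was Nipsnap2, a mitochondrial matrix protein that can act as a mitophagy signal, with a score of 13.0. In CD93-negative libraries 1 and 2, 38 and 12 were listed (73.1% and 23.1%), beside 32.2% and 12.9% of all genes. Nipsnap2 scored 46.9 in CD93-negative library 1 and was not listed in library 2. Among the 12 were Vcp, an ATPase that extracts ubiquitinated proteins (61.5 and 20.5 in CD93-negative libraries 1 and 2), the lysosomal proton pump subunit Atp6v0d1 (46.6 and 24.4) and the lysosomal calcium channel Mcoln1 (37.2 and 10.9). These 4 genes were picked with their values in view. The cathepsin genes Ctsd and Ctsl were listed in both CD93-negative libraries, and Ctsb in CD93-negative library 1. The E-box CACGTG was in 13 of the 55 promoters at hand for these genes (23.6%), against 7.84% of all promoters. It was in 11.4% of promoters of all genes listed in CD93-negative library 1 only and in 10.5% for both CD93-negative libraries only. This difference was not tested.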

How the data were processed

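The members, gene lists, motifs and comparisons were chosen with earlier results of these data known. The submitters' processing notes name Bowtie2, MACS2 and mm10. Their versions, the calling threshold, read filters and any shift for Tn5 are not given in the sources read here. Each deposited file lists the summits of 1 library, not pooled, and the score deposited by the authors was read as −log10 (of p or q, which is not stated), not scaled between libraries. Read depth is unknown, so list length (21, 711, 7989 and 2755 summits) is the only measure of yield.

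Gene positions (GRCm38.p6, 21887 protein-coding genes on assembled chromosomes) and promoters, which give strand and start site for 17492 of these genes, came from RefSeq. All 45 members matched by symbol, and 38 had a promoter. The promoters of Bnip3l, Rb1cc1, Becn1, Pik3c3, Atg12, Atg16l1 and Map1lc3a were not used here. Without strand, both gene ends were searched, and a summit counted for every gene in reach. Shared summits lay within 250 bp. Groups were taken from the sample titles and compared by exact permutation tests over libraries. No test was run over the members.

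The genes named with values were Bnip3l, members in a CD93-positive library, up to 15 members in the CD93-negative libraries alone (both lists, by the lower of their 2 within-list percentiles), the 5 of highest score in 1 CD93-negative library only and members whose summit lay nearer another gene, with those listed nowhere named without values. Alternatives were windows of 500 and 2500 bp, the gene body, start sites only, score minimums of 5 and 10, the nearest gene end, equal list lengths, leaving out each library and a replicate block. The assignment was tested on simulated summits. Python 3.11.15, numpy 2.4.6, pandas 2.3.3, scipy 1.17.1 and matplotlib 3.10.9 were used. No genome sequence and no list of artefact-prone regions was used.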

Additional observations from a re-analysis of the deposited data

How the results depend on the processing

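The lower share of members listed in CD93-positive than in CD93-negative libraries kept its direction in 14 of 15 settings and passed the test in none, since p could not fall below 0.333. It ranged from -78.9 to -36.7 percentage points when 1 library was left out. It turned to 1.11 points with 21 summits from each list, where Bnip3l was the single member. It was -2.22 points with 711 summits, and -35.6 points with lists of at most 2755. The share of each library's listed genes that were members was 12.1 points higher in the CD93-positive group. This difference rests on 1 gene of 4 in CD93-positive library 1, namely Bnip3l, which was chosen for being in every list. It reversed with start sites only (-0.438 points), with scores of at least 5 (-0.234) and 10 (-0.559), where CD93-positive library 1 listed no gene, and ranged from -0.297 to 24.4 points when 1 library was left out. With the title replicate numbers as a block, the differences were -57.8 points (exact permutation p = 0.5, the smallest that 2 pairs allow) and 12.1 points (exact permutation p = 1). The titles do not say that the numbers pair libraries, and 2 pairs are too few to check it. Counts at 711 summits were the same in 3 of 3 settings. A gene missing from a list of unknown depth may be open, and gene ends were not told apart for members without a start site.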
